A study of Homo with 2 samples.

Results

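The 52 genes described here act in the G2 phase of the cell cycle and in mitosis. They were taken as a named list, by symbol, from the count tables of day 4 human blastoids, which together hold 28363 genes, 25556 of them in both tables. All 52 members were found in both tables, and all 52 passed the filter on low counts in the comparison of cells with and without POU5F1. The list was not chosen by a measured value in these tables, but it was drawn up with earlier results of these data known.

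Before a cell divides, it stores the proteins that condense chromosomes, build the spindle and attach chromosomes to it. Cyclin-dependent kinase 1 with B-type cyclins drives entry into mitosis, and the anaphase-promoting complex (APC/C) with its activator CDC20 ends it by marking cyclins and other proteins for destruction. Messages of these genes accumulate late in the cycle. TOP2A, a DNA topoisomerase, is generally seen from S phase on, while CCNB2 and CDC20 messages are highest close to division. Human pluripotent stem cells are known for a short cell cycle.

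Blastoids are embryo-like aggregates that model the blastocyst. Their source was KhES1, an established line of human embryonic stem cells. Aggregates formed over 24 h in microwells and then spent 4 days inside a PNIPAAm-based hydrogel, in high-glucose DMEM containing 10% FBS and Y27632, a ROCK inhibitor, at 10 µM. There was 1 group of 2 libraries (sample 1 and sample 2, called library 1 and library 2), with no undifferentiated or untreated sample among them. All comparisons are therefore between kinds of cells inside these libraries.

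Library 1 held 38665475 unique molecular identifiers (UMIs, each standing for 1 captured RNA molecule) over 1988 barcodes, and library 2 held 45208758 over 2601. Dropping barcodes under 1000 genes or over 20% mitochondrial UMIs left 937 and 1519 cells with medians of 35059 and 25116 UMIs. The libraries shared 1 barcode. The members held 151560 UMIs in library 1 and 180530 in library 2, which is 4045 and 4107 CPM (UMIs scaled to a total of 1000000). No label ties the libraries to separate cultures. The p-values measure only how far differences between kinds of cells varied between these libraries, with the spread shared across genes. That spread may be technical.

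Cells with POU5F1 (OCT4), a transcription factor of pluripotent cells, at 200 CPM or more are called POU5F1+ and all others POU5F1-. There were 64 and 134 POU5F1+ cells in libraries 1 and 2, against 873 and 1385 POU5F1- cells. All 12 pluripotent epiblast markers, POU5F1 included, were higher in POU5F1+ cells, with summed levels of 2540 and 2624 CPM in POU5F1+ cells and 661 and 641 in POU5F1- cells. Markers of other cell types moved with the split too. Of 14 trophectoderm or amnion markers 13 were lower and 1, TFAP2C, higher, with sums of 1264 and 1253 CPM in POU5F1+ cells and 3496 and 3629 in POU5F1- cells. Of 10 mesenchyme markers 6 were lower and 2 higher, with sums of 409 and 346 against 1876 and 1910 CPM. All 6 primitive streak and mesoderm markers were higher, with sums of 436 and 443 against 13.7 and 7.83 CPM. Of 4 endoderm or hypoblast markers tested 3 (SOX17, GATA4 and CER1) were higher. The part of these other cell types in the results below was not tested.

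The POU5F1+ class was partly shallow. Cells under 5000 UMIs, in which a single POU5F1 UMI passes the gate, made up 29.7% and 35.8% of POU5F1+ cells and 10.4% and 24.0% of POU5F1- cells. A single POU5F1 UMI placed 14 and 39 cells in the POU5F1+ class, and 16 and 48 of all kept cells lay between 150 and 250 CPM. Results over all kept cells are therefore also given for cells with 5000 UMIs or more, of which 45 and 86 were POU5F1+ and 782 and 1052 POU5F1-.

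More mitotic members were higher than lower in POU5F1+ cells, and they differed widely among themselves. Of the 52 members, 28 were higher in POU5F1+ cells, 2 were lower and 22 did not pass the test. Among all 19076 genes tested, 24.1% were higher and 24% lower, so a shift was common among all genes, in both directions. The members' median log2 fold change was 0.34, against -0.04 for all genes tested, and 0.18 against -0.01 with the gate at 100 CPM. Their summed level, over genes in both tables, was 5184 and 5311 CPM in POU5F1+ cells and 3954 and 3953 in POU5F1- cells. In such sums, fewer cells with a message and less of it in each cell cannot be told apart. Values are sums of UMIs per library and class, tested with edgeR's quasi-likelihood test with the library as a block and Benjamini-Hochberg adjustment over all genes, and called at an adjusted p under 0.05.

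All 30 called members had the same direction in both libraries, as did 50 of all 52 members. A call with 2 libraries largely depends on such agreement, so this is no separate support. In 39 members both POU5F1+ values lay above both POU5F1- values, in 7 both lay below, and in 6 the classes overlapped. The same count was not made over all genes, so it only describes the members. The same test with cells of 5000 UMIs or more called 27 members higher and 2 lower, where 24.2% of all genes were higher and 24.4% lower. DESeq2's Wald test called 17 members higher and 0 lower, where 14.0% of all genes were higher and 13.9% lower. After each cell was thinned to 5000 UMIs 15 were higher and 1 lower, where 12.9% of all genes were higher and 14.6% lower.

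**Figure D1:**
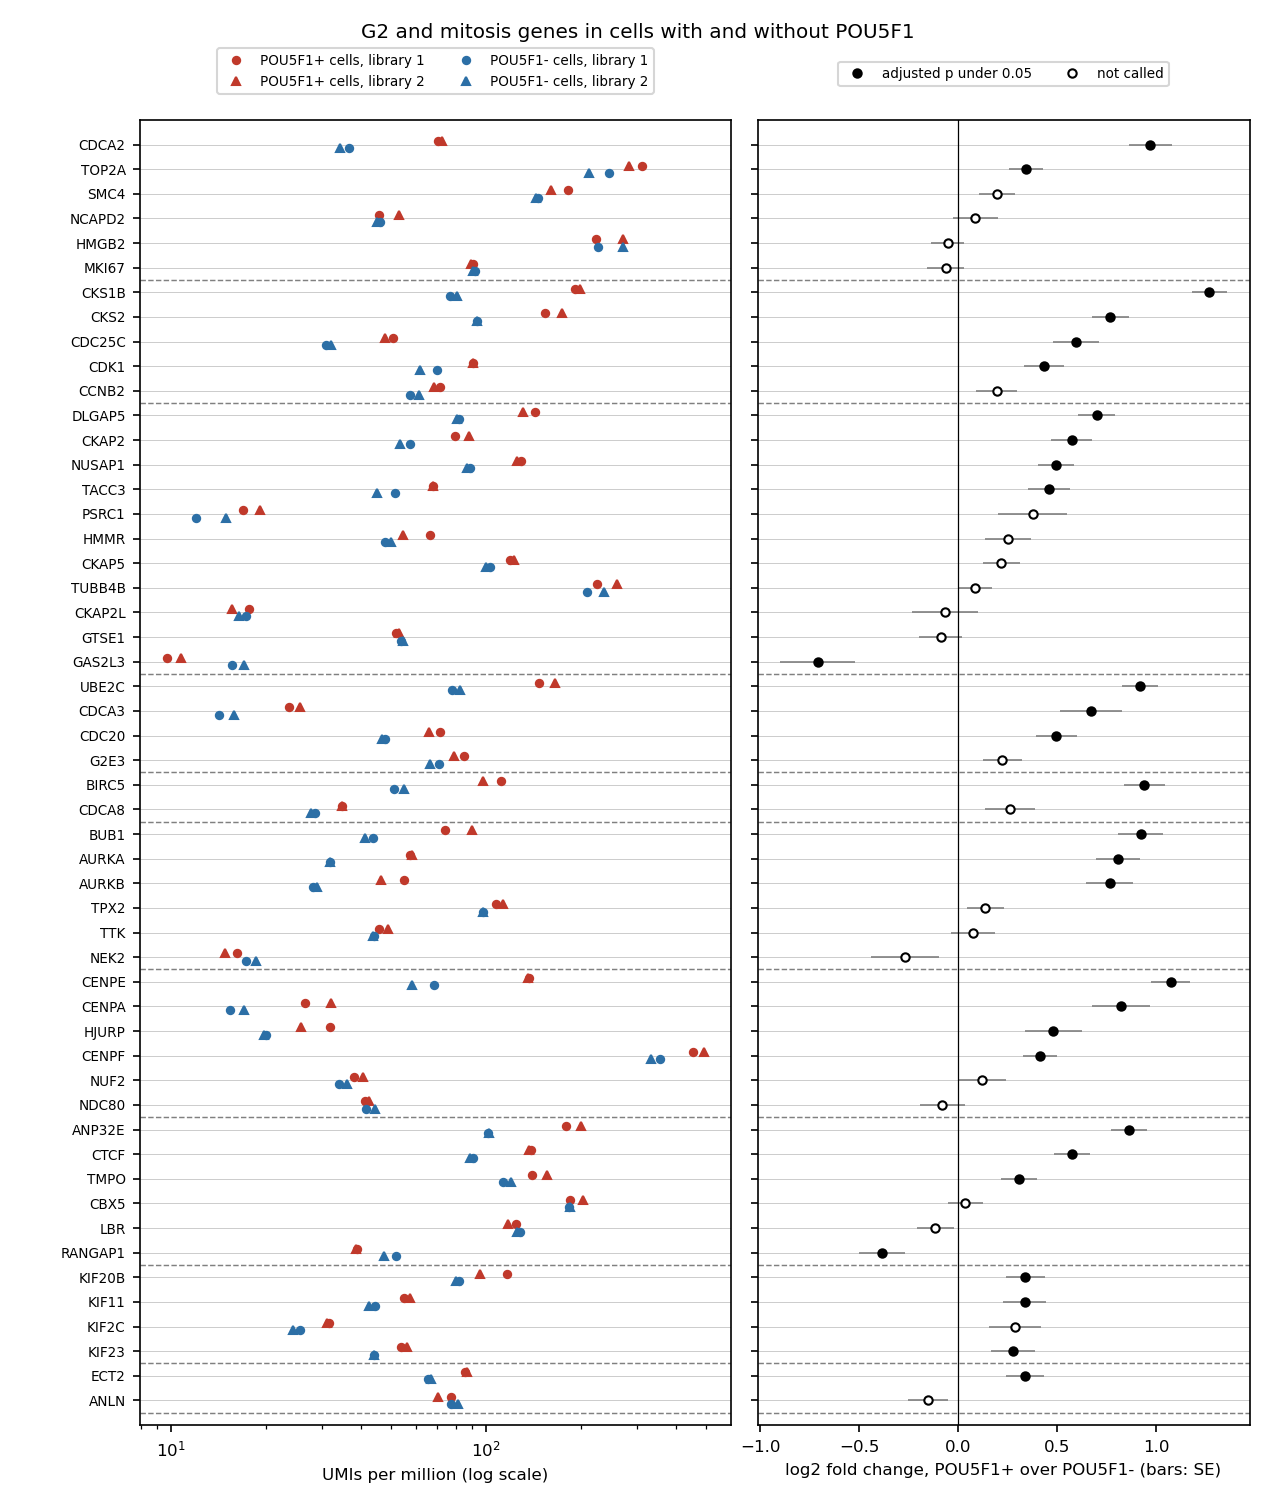
Left, the level of each member in CPM (log scale) in POU5F1+ and POU5F1- cells of libraries 1 and 2, grouped by role; right, the log2 fold change, POU5F1+ over POU5F1-, with its SE as a bar and filled points where edgeR's adjusted p was under 0.05. CKS1B lies farthest to the right at 1.27 and GAS2L3 farthest to the left at -0.71, while MKI67 lies close to 0.

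Of the 5 members among the cyclin and CDK genes, 4 were higher in POU5F1+ cells. CKS1B, a small subunit that docks on cyclin-dependent kinases (chromosome 1, positions 154974681 to 154979251 of GRCh38.p14), had 191 and 198 CPM in POU5F1+ cells, against 76.5 and 80.5 in POU5F1- cells. Its classes were far apart, and its log2 fold change of 1.27 (SE 0.09, edgeR adjusted p = 2.1e-08) was the largest among the members. Its paralog CKS2 had 154 and 173 against 93.6 and 93.5 CPM, a log2 fold change of 0.77. CDC25C, the phosphatase that activates CDK1, had 50.7 and 47.7 against 31.0 and 32.1 CPM, and CDK1 itself had 90.5 and 90.6 against 69.5 and 61.6. CCNB2, a B-type cyclin (chromosome 15, 59105146 to 59125045), was the exception. It had 71.5 and 68.2 CPM in POU5F1+ cells and 57.1 and 61.3 in POU5F1- cells, with a log2 fold change of 0.19 that did not pass the test (edgeR adjusted p = 0.14).

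Among the 4 ubiquitin-related members (the APC/C activator, a ubiquitin-conjugating enzyme and ligase-like genes), 3 were higher. UBE2C, the ubiquitin-conjugating enzyme that works with the APC/C (chromosome 20, 45812644 to 45816952), had 147 and 165 CPM in POU5F1+ cells and 78.1 and 82.5 in POU5F1- cells. Its log2 fold change was 0.92 (SE 0.09, edgeR adjusted p = 9.5e-07). CDC20, the activator (chromosome 1, 43358981 to 43363203), had 71.1 and 65.6 against 47.5 and 46.5 CPM, a log2 fold change of 0.50 (SE 0.10, edgeR adjusted p = 0.0011). CDCA3 rose by 0.67 on the log2 scale, from low counts, and G2E3 had a value of 0.22 that did not pass.

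Of the 6 mitotic kinases and TPX2, 3 were higher. BUB1, a kinase of the spindle checkpoint, had 74.0 and 89.8 CPM in POU5F1+ cells and 43.6 and 41.1 in POU5F1- cells, a log2 fold change of 0.92 (SE 0.11, edgeR adjusted p = 8.2e-06). AURKA, which acts at spindle poles, rose by 0.81 and AURKB, the kinase of the chromosomal passenger complex, by 0.76. BIRC5 (survivin), a partner of AURKB in that complex, had 112 and 98 against 50.9 and 54.7 CPM, a log2 fold change of 0.94, while the partner CDCA8 had 34.9 and 34.7 against 28.7 and 27.9 and did not pass. Neither did TPX2, the activator of AURKA (0.14), TTK, another checkpoint kinase (0.07), or NEK2, a centrosome kinase (-0.27).

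At centromeres and kinetochores, 4 of 6 members were higher. CENPE, a kinesin of the kinetochore (chromosome 4, 103105811 to 103198343), had 136 and 135 CPM in POU5F1+ cells against 68.2 and 58.2 in POU5F1- cells, a log2 fold change of 1.07 (SE 0.10, edgeR adjusted p = 3.4e-07). CENPA, the centromeric histone H3 variant, rose by 0.82, its chaperone HJURP by 0.48 and the large kinetochore protein CENPF by 0.41. NDC80 and NUF2, which together form the outer arm that holds microtubules, did not pass. NDC80 had 41.3 and 42.3 against 41.5 and 44.4 CPM, and NUF2 had 38.1 and 40.5 against 34.2 and 36.2.

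Of 6 chromosome structure members 2 were higher. CDCA2, which targets a phosphatase to chromatin, had 70.4 and 72.2 CPM in POU5F1+ cells and 36.8 and 34.3 in POU5F1- cells, a log2 fold change of 0.97 (SE 0.11). TOP2A (chromosome 17, 40388525 to 40417896) had 311 and 284 against 246 and 212 CPM, a log2 fold change of 0.34 (SE 0.08, edgeR adjusted p = 0.0037). MKI67, which coats mitotic chromosomes and gives the Ki-67 antigen (chromosome 10, 128096659 to 128126423), had 90.5 and 89.6 CPM in POU5F1+ cells and 92.1 and 91.1 in POU5F1- cells. Its log2 fold change was -0.06 (SE 0.10, edgeR adjusted p = 0.61). The condensin subunits SMC4 (0.20) and NCAPD2 (0.09) and the chromatin protein HMGB2 (-0.05) did not pass either.

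Of 11 spindle microtubule proteins, 4 were higher, 1 was lower and 6 did not pass. DLGAP5 had 142 and 131 CPM in POU5F1+ cells, against 82.2 and 81.0 in POU5F1- cells. CKAP2 (0.57), NUSAP1 (0.49) and TACC3 (0.46) followed it. GAS2L3, a linker of actin and microtubules (chromosome 12, 100573684 to 100628288), went the other way, with 9.70 and 10.8 against 15.6 and 17.1 CPM and a log2 fold change of -0.71 (SE 0.19, edgeR adjusted p = 0.0063). It rests on 27 and 54 UMIs in POU5F1+ cells, and DESeq2's Wald test did not call it. The 6 that did not pass were PSRC1 (log2 fold change 0.38), HMMR (0.25), CKAP5 (0.22), TUBB4B (0.08), CKAP2L (-0.07) and GTSE1 (-0.09). Of 4 spindle kinesins, KIF20B, KIF11 and KIF23 were higher by 0.34, 0.34 and 0.28, and KIF2C had 0.29 and did not pass. KIF23 was the called member nearest to the threshold (edgeR adjusted p = 0.049). The exchange factor ECT2, needed to cut dividing cells apart, was higher by 0.34, and the scaffold ANLN had -0.15 and did not pass.

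Of the 6 chromatin and nuclear envelope members, 3 were higher and 1 lower. The histone chaperone ANP32E had 179 and 200.3 CPM in POU5F1+ cells and 101 and 102 in POU5F1- cells. CTCF, which insulates chromatin domains, rose by 0.57 and TMPO, a lamina-binding protein, by 0.31. RANGAP1, which activates the Ran GTPase (chromosome 22, 41244779 to 41302369), fell to 38.8 and 38.7 CPM in POU5F1+ cells, against 51.5 and 47.5 in POU5F1- cells. DESeq2's Wald test did not call RANGAP1. The lamin B receptor LBR (-0.12) and the heterochromatin protein CBX5 (0.04) did not pass. Several members, such as CKS1B, HMGB2, TUBB4B and CBX5, have near-identical paralogs or processed copies in the genome. The sources used here do not state how reads shared with such copies were counted, so their levels are less certain.

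Genes outside the 52 were taken from fixed lists. Of 54 other mitosis genes, 29 were higher and 4 lower in POU5F1+ cells, with a median log2 fold change of 0.37. PIMREG, a mitotic regulator, had 31.6 and 34.9 CPM in POU5F1+ cells, against 7.06 and 6.29 in POU5F1- cells. CDKN3, a CDK phosphatase, had 56.8 and 57.7 against 17.5 and 19.6 CPM. SKA1 and CENPN, both kinetochore genes, rose by 1.46 and 1.11 on the log2 scale. The 4 lower genes were DIAPH3, PBK, KIF14 and LIN9, named here after their values were seen.

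S phase genes, which copy DNA before G2, were also mostly higher. Of 49, 38 were higher and 0 lower, with a median log2 fold change of 0.63. The number lower was also 0 at an unadjusted p under 0.05 and by DESeq2. Their summed level was 3853 and 3825 CPM in POU5F1+ cells and 2368 and 2409.6 in POU5F1- cells, led by the helicase subunit MCM2 (1.19) and the flap nuclease FEN1 (1.18). Of 17 APC/C subunits and inhibitors 8 were higher, led by the ubiquitin-conjugating enzyme UBE2S with 236 and 217 against 94.8 and 97.4 CPM, and 1, the activator FZR1, was lower. Of 8 CDK inhibitors and pocket proteins tested, CDKN1A and RBL1 were higher and CDKN1C, RB1 and RBL2 lower. The CDK inhibitor CDKN1C had 48.5 and 26.5 CPM in POU5F1+ cells, against 163 and 124 in POU5F1- cells.

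Cells with GATA3, a transcription factor of trophectoderm and amnion, were next set apart with the same gate of 200 CPM. POU5F1+ cells without GATA3 numbered 55 and 116, cells with both genes 9 and 18, and POU5F1- cells with GATA3 215 and 350. In POU5F1+ cells without GATA3, 37 members were higher than in POU5F1- cells with GATA3, 1 (GAS2L3) was lower and 14 did not pass. Of all 16908 genes tested, 24.4% were higher and 24.7% lower. The members' median log2 fold change was 0.60. All 28 members higher in the POU5F1 split were among the 37. The comparison shares most of its POU5F1+ cells with that split.

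CDCA2 led with 75.7 and 75 CPM in POU5F1+ cells without GATA3, against 27.8 and 26.7 in POU5F1- cells with GATA3 (log2 fold change 1.40, SE 0.12, edgeR adjusted p = 6.5e-06). CDC25C had 55.5 and 49.2 against 21.2 and 21.6 CPM, and BUB1 had 77.3 and 95 against 34.1 and 36.3. All 4 spindle kinesins passed here. KIF11, which pushes spindle poles apart, had 58.3 and 60.7 against 35.5 and 35.2 CPM. MKI67, NDC80, HMMR and CCNB2 did not pass in this comparison either, with log2 fold changes between 0.18 and 0.34.

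In cells with both genes, 0 members passed in either direction against POU5F1- cells with GATA3, where 3.98% of all genes were higher and 5.09% lower. At an unadjusted p under 0.05, 9 were higher and 7 lower, where 3954 of all 16908 genes tested passed in either direction. With DESeq2's size factors, edgeR called 1 member. These cells were few and shallow, with median depths of 7200 and 3256 UMIs. POU5F1+ cells without GATA3 had 9 members higher than cells with both genes (5.79% of all genes were higher). POU5F1- cells without GATA3 had 2 members, CDC25C and CDCA2, higher than POU5F1- cells with GATA3 (1.52% of all genes were higher).

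How many cells carried these messages was read in cells with 5000 UMIs or more. Cells were called late where CCNB2 and CDC20 together reached 200 CPM, early where TOP2A did and the late pair did not, and neither otherwise. These classes are ranges of a level and not cell types: 10.6% and 10.7% of the cells lay between 150 and 250 CPM of the late pair, and 7.01% and 8.88% did for TOP2A. In POU5F1+ cells 23 of 45 (51.1%, 95% exact interval 35.8 to 66.3) and 46 of 86 (53.5%, 42.4 to 64.3) were early or late. In POU5F1- cells 239 of 782 (30.6%, 27.3 to 33.9) and 369 of 1052 (35.1%, 32.2 to 38.0) were. The intervals do not overlap between classes in either library and cover counting error only. Median depths were 52670 and 47940 UMIs in POU5F1+ cells and 37304 and 32172 in POU5F1- cells. With 2 libraries an exact permutation test that ignores the pairing by library cannot go below 0.333, and a paired one has fewer arrangements. These shares therefore carry no p.

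**Figure D2:**
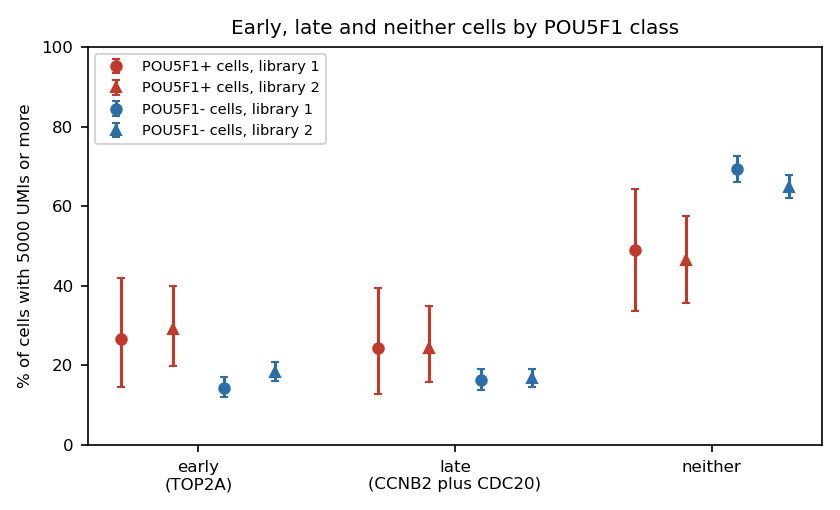
Share of cells with 5000 UMIs or more that were early, late or neither, in POU5F1+ and POU5F1- cells of each library, with exact 95% intervals as bars. POU5F1+ cells have higher values for early and for late cells in both libraries, with overlapping intervals, and 48.9% and 46.5% of them were neither, against 69.4% and 64.9% of POU5F1- cells.

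Taken apart, the classes had overlapping intervals. Late cells made up 24.4% (12.9 to 39.5) and 24.4% (15.8 to 34.9) of POU5F1+ cells, against 16.2% (13.7 to 19.0) and 16.7% (14.5 to 19.1) of POU5F1- cells. Early cells made up 26.7% (14.6 to 41.9) and 29.1% (19.8 to 39.9) of POU5F1+ cells, against 14.3% (11.9 to 17.0) and 18.3% (16.1 to 20.8) of POU5F1- cells. Late cells as a share of early and late cells together were 47.8% and 45.7% in POU5F1+ cells and 53.1% and 47.7% in POU5F1- cells, with overlapping intervals. UMIs of CCNB2 and CDC20 per UMI of TOP2A came to 0.458 and 0.471 in POU5F1+ cells and 0.425 and 0.509 in POU5F1- cells. The log2 ratio of these was 0.11 in library 1 and -0.11 in library 2, so this ratio of the summed pair had no common direction. Taken singly, the log2 ratio was -0.01 and -0.27 for CCNB2 and 0.24 and 0.07 for CDC20, so the late genes pointed opposite ways.

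After each cell was thinned to 5000 UMIs, TOP2A was found in 51.1% and 58.1% of POU5F1+ cells and 33.6% and 36.7% of POU5F1- cells (82.2% and 88.4% against 59.0% and 60.9% without thinning). For comparison, shares are given in cells with no UMI of the members MKI67, CENPF, TPX2 and NUSAP1, at median depths of 28792 and 26012 UMIs. These cells were chosen for lacking abundant members and were shallower, so their shares are low by selection and may understate the free RNA. There TOP2A was found in 2 of 137 cells (1.46%) and 1 of 166 (0.602%) after thinning, and in 12.4% and 8.43% without it. CCNB2 or CDC20 was found in 37.8% and 45.3% of thinned POU5F1+ cells and 26.3% and 29.1% of thinned POU5F1- cells, against 5.11% and 6.63% in the cells without those members (86.7% and 88.4%, 64.2% and 65.1%, and 24.8% and 28.3% without thinning). The direction for CCNB2 or CDC20 was not the same when cells were thinned to 2000 UMIs. The pair was then found in 9.52% and 20.8% of POU5F1+ cells and 14.97% and 15.6% of POU5F1- cells. It was lower in POU5F1+ cells of library 1 and higher in those of library 2. Thinning to 2000 UMIs also takes in shallower cells, with 63 and 120 POU5F1+ cells in place of 45 and 86. Depth and the cells counted therefore changed together. MKI67 was found in 44.4% and 39.5% of thinned POU5F1+ cells and 24.0% and 26.8% of thinned POU5F1- cells (75.6% and 76.7% against 49.4% and 54.2% without thinning), while its summed level over all kept cells did not pass the test. The cells chosen to lack MKI67 give no comparison for it.

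**Figure D3:**
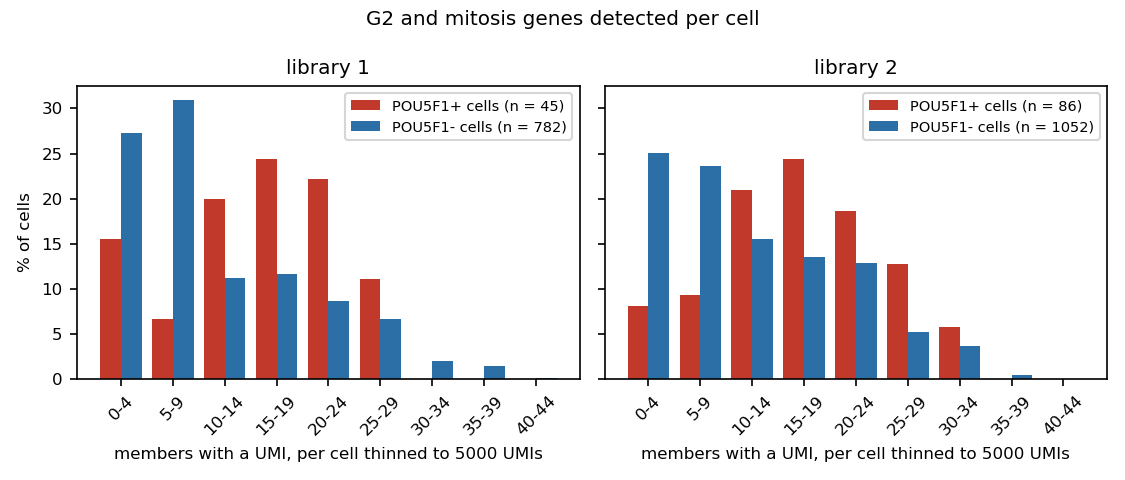
Number of the 52 members with a UMI in each cell after thinning to 5000 UMIs, as the share of POU5F1+ and of POU5F1- cells in each library. The median is 16 and 17 members in POU5F1+ cells and 7 and 10 in POU5F1- cells, whose distribution has a high bar at few members.

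The number of members detected in a cell was also compared. After thinning, the 25th to 75th percentiles of POU5F1+ cells were 10 to 22 members in library 1 and 12 to 23 in library 2, and those of POU5F1- cells 4 to 17 and 4 to 19. The 90th percentiles were 25.8 and 26.5 members in POU5F1+ cells and 25 and 24 in POU5F1- cells. At least 5 members were found in 84.4% and 91.9% of POU5F1+ cells and 72.8% and 74.9% of POU5F1- cells, and in 30.7% and 31.9% of cells with no UMI of the 4 members named above, which can hold only the other members. Without thinning these shares were 95.6% and 100% in POU5F1+ cells, 98.3% and 98.5% in POU5F1- cells and 89.1% and 91.6% in the cells without those members.

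Many mitotic genes were higher in late than in early cells. TOP2A, the gene of the early gate, also had more in late cells, with 694 and 557 CPM against 490 and 415. The late class is therefore not one without the early gene. There were 138 and 197 late cells and 124 and 218 early cells. Leaving out the 3 gate genes, 24 of 49 members were higher in late than in early cells and 0 were lower, where 6.3% of all 16735 genes tested were higher and 5.92% lower. The number lower was also 0 at an unadjusted p under 0.05 and by DESeq2. The median log2 fold change of the 49 was 0.31, against 0.00 for all genes. Late cells were chosen by CCNB2 and CDC20, members of the same list, and early cells had to lie below that gate. The count of higher members and the lack of lower ones are therefore bound in part to the choice of cells. Median depths were 41953 and 38641 UMIs in late cells and 49239 and 36930 in early cells. With the gates at 400 CPM 11 members were higher (4.38% of all genes), and after thinning to 5000 UMIs 15 were (3.91% of all genes).

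The members with the largest log2 fold changes outside the gates came from several roles. HMMR, a spindle-assembly factor (chromosome 5, 163460632 to 163491941), had 151 and 139 CPM in late cells, against 67.8 and 68.0 in early cells (log2 fold change 1.13, SE 0.12, edgeR adjusted p = 0.0027). NEK2 (chromosome 1, 211658256 to 211675621) had 50.7 and 50.6 against 23.7 and 25.7 CPM, and GAS2L3 had 43.2 and 42.2 against 21.5 and 24.0. UBE2C had 255 and 247 against 127 and 145 CPM. In none of these did a late value fall within the early range. TUBB4B, a beta-tubulin, had 416 and 464 against 244 and 265 CPM, with the smallest SE of the leading genes (0.82, SE 0.05). In all, 9 of 11 spindle microtubule proteins were higher in late cells.

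In the other roles, members that passed stood beside members that did not. The kinases and TPX2 had 3 of 6 higher, with AURKA at a log2 fold change of 0.70. The centromere and kinetochore members had 3 of 6, with CENPA at 0.67 and CENPF at 0.65. The ubiquitin-related members outside the gates had 2 of 3 and the cyclin and CDK members 2 of 4. BIRC5 was higher by 0.81. None of the 4 spindle kinesins passed, and KIF11 had 87.3 and 82.6 CPM in late cells against 88.7 and 82.2 in early cells. HJURP had 43.5 and 37.7 against 46.5 and 43.9, NDC80 had a log2 fold change of -0.04 and CDC25C of -0.03. Among chromatin members, LBR, the lamin B receptor, had 215 and 202 against 147 and 142 CPM and ANP32E was higher by 0.42, while CTCF, CBX5, TMPO and RANGAP1 did not pass. Both cytokinesis members, ECT2 and ANLN, did not pass. MKI67 was higher in late cells, with 223 and 199 against 178 and 172 CPM (edgeR adjusted p = 0.043).

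S phase genes ran the opposite way. Of 49, 25 were lower in late than in early cells and 0 were higher, also at an unadjusted p under 0.05 and by DESeq2. Their summed level was 2598 and 2609 CPM in late cells, 3383 and 3324 in early cells and 2171 and 2313 in cells that were neither. The members' sum was 8788 and 8249.7 CPM in late cells, 6516 and 6325 in early cells and 1771 and 1961 in neither cells. All 49 members were higher in early than in neither cells (8.2% of all genes were higher), and all 49 in late than in neither cells (14.5% of all genes were higher). The cells were chosen by members of the same list. From cell to cell 37 of the 49 had a Pearson's r to TOP2A of at least 0.5 in both libraries. These 2 counts are therefore bound to the choice of cells and are no separate result. Trophectoderm or amnion markers moved with the late class: 9 of 14 were higher and 1 lower than in early cells, with sums of 3141 and 3267 against 2628 and 2798 CPM, and none of the 14 was at 0. Their part in the result was not tested. In POU5F1- cells alone 27 members were higher in late cells, where 8.28% of all genes were higher.

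**Figure D4:**
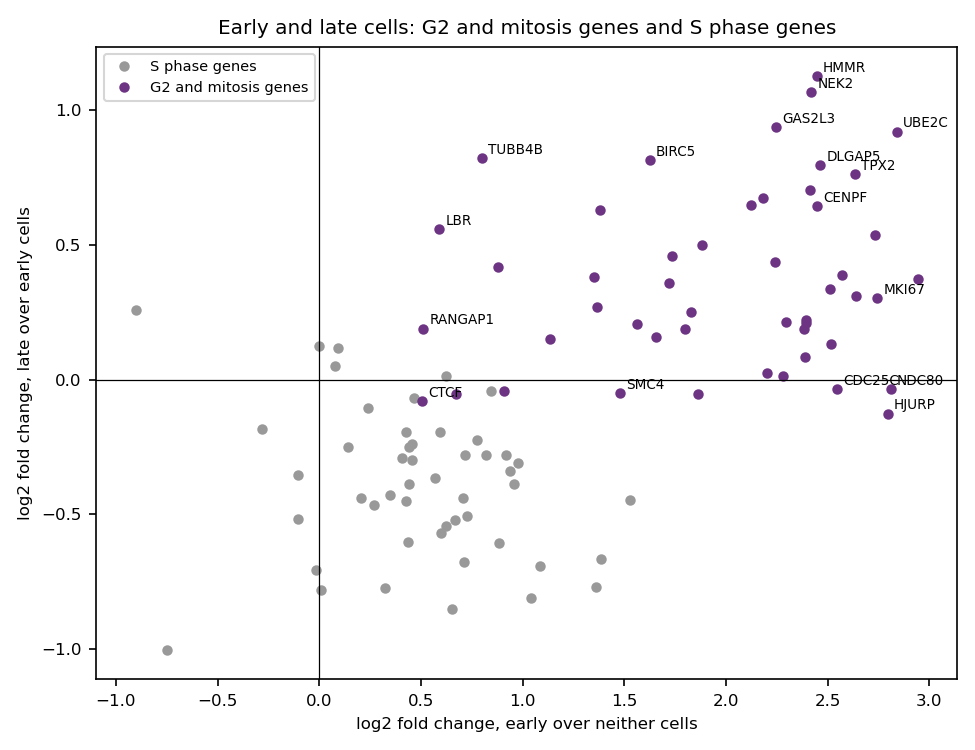
Each point is a gene: log2 fold change of late over early cells (vertical) against early over neither cells (horizontal), for the 49 members outside the gates and 49 S phase genes. The early cells enter both axes; members lie at or above 0 on the vertical axis apart from a few just below it, down to -0.13 for HJURP, and most S phase genes lie below 0.

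The POU5F1 split was also made inside each of the 3 classes, a comparison added after the data had been seen. Among cells that were neither, 29 of 49 members were higher in POU5F1+ cells and 1 (RANGAP1) lower, where 20.1% of all 16271 genes were higher and 20.6% lower. Among early cells 8 were higher and 9 lower (15.9% and 17.8% of all genes), and among late cells 2 were higher and 13 lower (15.5% and 15.4% of all genes). The 2 higher in late cells were CKS1B and CDCA2. POU5F1+ cells numbered 22 and 40 among neither, 12 and 25 among early and 11 and 21 among late cells. No test is given for the gate genes. In late POU5F1+ cells CCNB2 had 120 and 132 CPM, against 172 and 185 in late POU5F1- cells, and CDC20 had 125 and 131 against 166 and 159. In neither cells all 3 gate genes had higher values in POU5F1+ cells. TOP2A had 76.3 and 73.6 against 33.9 and 36.2 CPM, CCNB2 44.6 and 36.0 against 21.2 and 23.4, and CDC20 40.0 and 32.2 against 11.6 and 13.8. POU5F1+ and POU5F1- cells were thus not matched for the gate genes inside these classes.

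CKS1B was higher in POU5F1+ cells of all 3 classes. It had 225 and 265 CPM against 156 and 156 in late cells, 242 and 259 against 114 and 114 in early cells, and 125 and 136 against 42.2 and 46.7 in neither cells. HMGB2, NDC80, MKI67, ANLN, LBR, NEK2 and GAS2L3 were lower in both early and late POU5F1+ cells. How many of all genes were lower in both was not counted. In early cells the members were called about as often as all genes, in both directions. MKI67 had 137 and 178 CPM in late POU5F1+ cells, against 233 and 202 in late POU5F1- cells, and 113 and 104 against 187 and 182 in early cells. In neither cells it was higher, with 40.9 and 38.0 against 23.2 and 25.8 CPM.

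The difference between these folds was tested directly as an interaction. For neither against late cells the POU5F1 fold differed in 7 of 49 members, all with the larger fold in neither cells (0.227% of all genes differed). These were HMMR, TPX2, TUBB4B, CENPF, UBE2C, BUB1 and BIRC5. HMMR differed most, by 2.02 on the log2 scale (SE 0.31, edgeR adjusted p = 0.025): it had 33.5 and 27.3 CPM in POU5F1+ neither cells, against 9.04 and 12.8 in POU5F1- neither cells, and 114 and 85.8 against 156 and 148 in late cells. For neither against early cells 1 member differed, MKI67, by 1.45 (SE 0.21, edgeR adjusted p = 0.019, 0.356% of all genes differed). The classes were cut by members of the list, and POU5F1+ and POU5F1- cells were not matched for these gate genes. The interaction test cannot tell a change in the POU5F1 fold from this mismatch.

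Across the other kinds of cells, members were placed with gates of 200 CPM on marker genes of the blastoids, which overlap. DCN plus LUM, 2 mesenchymal matrix genes, were gated on their sum, so 1 of them can pass the gate alone. The summed members came to 5142 and 4789 CPM in cells with DCN plus LUM but without VTCN1, an amnion marker. In POU5F1+ cells, here scaled to all genes of each table, they came to 5183 and 5310. Cells without VTCN1, DCN plus LUM or POU5F1 had summed members of 5339 and 4682 CPM. The summed members came to 2619 and 3243 in cells with VTCN1 and to 3481 and 3412 in cells with GATA3. Where the gates of VTCN1 and of DCN plus LUM were both passed, they came to 2530 and 3252. The lowest sums of the gates used, 2006 and 2479 CPM, were in cells with VTCN1 and STMN2, a neuronal microtubule gene. Gates on TBXT, SOX2 and GATA2 held under 20 cells in library 1 and are not given.

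The share of early or late cells was 45.6% (39.0 to 52.3) and 49.8% (44.2 to 55.5) in cells with DCN plus LUM without VTCN1. The share was 44.7% and 44.1% in cells without VTCN1, DCN plus LUM or POU5F1. It was 16.3% (12.8 to 20.2) and 24.2% (20.7 to 28.0) in cells with VTCN1, and 9.80% (3.26 to 21.4) and 13.3% (6.58 to 23.2) in cells with VTCN1 and STMN2. The intervals of POU5F1+ cells and of cells with DCN plus LUM without VTCN1 overlap in both libraries.

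**Figure D5:**
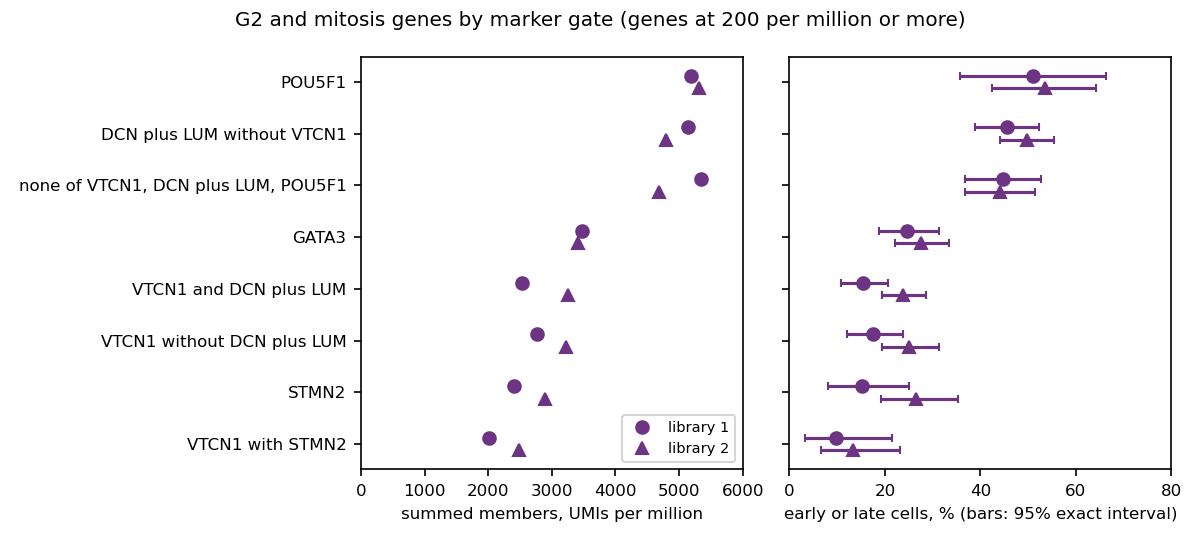
Summed level of the 52 members in CPM (left) and share of early or late cells with exact 95% intervals (right) for 8 marker gates, with 1 point per library. The 3 gates at the top lie at 4682 CPM or more in both libraries and those with VTCN1 or STMN2 at 3252 or less.

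From cell to cell, most members followed TOP2A. Over 827 and 1138 cells of 5000 UMIs or more, Pearson's r between log levels was highest for NUSAP1 (0.83 and 0.77), MKI67 (0.81 and 0.76) and CENPF (0.80 and 0.81), and was at least 0.5 in both libraries for 37 of 49 members. It was lowest for RANGAP1 (0.21 and 0.20) and CTCF (0.29 and 0.22). Only TUBB4B and ANP32E had a higher r to the sum of CCNB2 and CDC20 than to TOP2A in both libraries. In these cells CCNB2 and CDC20 averaged 60.2 and 49.3 CPM over the libraries, against 235 for TOP2A. Fewer UMIs can lower an r, so a lower r to the pair does not place a member with the early gene. These cells share a library and their depth differs, and the members' own r with depth reached 0.43, so these values describe the cells and carry no p.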

How the data were processed

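For each library the authors deposited a table of raw UMI counts, with genes as rows and barcodes as columns. Per the labels' protocols, libraries were made with droplet 3' chemistry, and the submitters' processing notes name Cell Ranger 9.0.0, with GRCh38 as the build. The deposited tables hold only barcodes with at least 200 genes and genes found in at least 2 barcodes. The sources used here do not state what set those limits.

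The members and lists were chosen with earlier results of these data known. Counts of kept barcodes were summed per library and class and tested with edgeR 4.0.16 (TMM, filterByExpr, quasi-likelihood test, library as a block, R 4.3.3). The block follows from both classes being cut from the same library. Library deviations of the classes correlated weakly (r = 0.07 over 19076 genes). SE was taken as |log2 fold change| over the root of the F statistic. The fit has 1 residual degree of freedom, and the spread is shared across genes. The fit was tested on simulated data with known changes.

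Thinning drew 5000 UMIs per cell with a fixed seed and left out 110 and 381 shallower cells. Intervals are exact Clopper-Pearson at 95%. Doublets were kept; scrublet in scanpy 1.11.5 marked 4 and 3 barcodes, removed in an alternative. Correlations used log2(CPM + 10). All members are named, and of each other list up to 4 genes with the largest fold in the POU5F1 split at 10 CPM or more in either class. Genes named outside this to spell out a count of 5 or fewer were chosen after their values were seen. Positions are those of RefSeq on GRCh38.p14. Alternatives were another scaling, DESeq2 1.42.0, other gates, depths and filters, no block, and leaving out each library.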

Additional observations from a re-analysis of the deposited data

Results flagged for a closer look

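Signal of the members also appeared in barcodes that the filters left out, above the limit that a count of 0 allows. Barcodes with under 1000 detected genes held 3376 CPM of the members in library 1 (980 barcodes, 1998 UMIs, limit 5.07 CPM) and 4711 in library 2 (1013 barcodes, 3250 UMIs, limit 4.35). Barcodes over 20% mitochondrial UMIs held 1903 CPM in library 1 (71 barcodes, limit 4.95) and 2571 in library 2 (69 barcodes, limit 5.30). Kept barcodes held 4045 and 4107 CPM.

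The POU5F1 fold differed between cells outside the early and late classes and late cells in 7 members, and between those cells and early cells in 1 member, by the interaction test in edgeR. The classes were cut by members of the list, and POU5F1+ and POU5F1- cells were not matched for the gate genes inside them. What sets these differences was not tested.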

How the results depend on the processing

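The direction of the members' shift in the POU5F1 split held under every alternative run. The number higher was 17 by DESeq2's Wald test and 15 after thinning, against 28, and between 23 and 29 under the other alternatives. Without the replicate block it was 29 in place of 28, which changed 1 call. The median log2 fold change of 0.34 became 0.30 with at most 10% mitochondrial UMIs, 0.31 by DESeq2, 0.40 after thinning, 0.18 and 0.27 with gates at 100 and 400 CPM and 0.25 with no low-count filter. Within single libraries it lay between 0.30 and 0.33. Of the 30 called members, 12 kept the call under every tested alternative and none changed direction while called.

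For late over early cells, 15 members were higher after thinning and 11 with gates at 400 CPM, against 24, and 20 without the block. In the GATA3 gates, POU5F1- cells without GATA3 had 4 members higher with DESeq2's size factors and 1 in cells of 5000 UMIs or more, against 2; cells with both genes had 1 with those size factors, against 0. POU5F1+ cells exceeded POU5F1- cells in the share with TOP2A by 19.5 points, and by 15.8 and 28.3 after thinning to 2000 and 10000 UMIs. For CCNB2 or CDC20 the difference was 13.8 points, reversed to -0.0944 at 2000 UMIs, where the libraries had opposite signs, and 20.9 at 10000. For at least 5 members it was 14.3 points, 24.9 at 2000 and 4.73 at 10000. The log2 difference in late to early ratio was 0.00 for the summed pair, 0.16 for CDC20 alone and -0.14 for CCNB2 alone. Thinning keeps fewer UMIs by construction and leaves out cells below the chosen depth, so 2000 UMIs keeps more cells than 5000. For the other shifts the cause was not tested. A search for promoter motifs was not run. Precision is limited by 2 libraries and by 64 and 134 POU5F1+ cells.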
